A study of Mus musculus with 24 samples.

Results

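Expression of 5 pairs of chromosome neighbours from different gene families, 10 genes in all, was followed over 6 inbred mouse strains, namely St6galnac2 with BC018473, Serinc3 with Pkig, Lgr5 with Tspan8, Trpv6 with Kel, and Mettl23 with Srsf2. They were 10 of the 12394 genes that the array annotation names through probe sets with a single symbol, and all 23 probe sets annotated to them were taken. The pairs had been picked from the levels in these arrays because both partners stood apart in the same strain, so the level of a partner in that strain is given as a description with no test. The strain of a pair was taken as the one whose mean lay farthest from the mean of the other 5, averaged over both partners. This was 129X1 for St6galnac2/BC018473 and Serinc3/Pkig, BALB/c for Lgr5/Tspan8 and Trpv6/Kel, and C57BL/6 for Mettl23/Srsf2.

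The series measured total RNA of the ventral prostate, a secretory lobe of the rodent gland that adds to the seminal fluid, on 24 Affymetrix MOE430A arrays. The groups were 129X1, BALB/c, C57BL/6, AKR, SWR and FVB mice, with 4 biological replicates each. All mice were wild type, 8 weeks old, untreated and on a standard diet, so no group carried a transgene or a drug. By its title the series sought modifiers of cancer through expression in parental strains, and the question here is how closely the 2 genes of each pair follow each other. The labels do not say whether an array held RNA of 1 mouse or of several, and p-values set differences between strains against the spread between these replicates.

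St6galnac2 encodes a Golgi sialyltransferase that adds sialic acid to the inner sugar of O-linked glycans on mucin-type proteins, and BC018473 is listed by RefSeq as a long non-coding RNA. Serinc3 encodes a multipass membrane protein of the serine incorporator family, whose human relative SERINC3 is known as a restriction factor that lowers the infectivity of retroviral particles. Pkig encodes an inhibitor of the catalytic subunit of protein kinase A, the kinase that cyclic AMP switches on. Lgr5 encodes a receptor for R-spondins that strengthens Wnt signalling and marks stem cells of the intestine and the hair follicle. Tspan8 encodes a tetraspanin, a membrane protein that gathers integrins and other receptors into clusters. Trpv6 encodes an epithelial calcium channel of the apical membrane. Kel encodes the Kell blood group protein, a zinc endopeptidase of the neprilysin family best known from red cells, where it is bound to Xk. Mettl23 encodes a methyltransferase-like protein, and Srsf2 encodes a serine and arginine rich splicing factor that binds exonic enhancers.

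The 5 pairs lie at 4 places in the genome. In the RefSeq gene order of GRCm38.p6 no annotated gene separates Mettl23 from Srsf2 on chromosome 11. There is 1 gene between St6galnac2 and BC018473 on chromosome 11 and 1 between Serinc3 and Pkig on chromosome 2. There are 2 genes between Lgr5 and Tspan8 on chromosome 10 and 4 between Trpv6 and Kel on chromosome 6, Trpv5 among them. None of these genes in between had a probe set with a single symbol that passed the intensity filter, so nothing is known here of the levels between partners. BC018473 and Mettl23 have only 3 genes between them, so the St6galnac2/BC018473 and Mettl23/Srsf2 pairs occupy the same stretch and share flanking genes. Mettl23 overlaps Jmjd6, and Srsf2 overlaps Mfsd11, in the RefSeq annotation, and it is not known here which probes lie in the shared parts.

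The start regions are shown for the 3 pairs in which both partners had an entry, because they let the 2 starts of a pair be set against each other. Each window holds 250 bases before and 50 bases after the annotated start, is read 5′ to 3′ on the strand of the gene, and comes from RefSeq (GRCm38.p6). St6galnac2, BC018473 and Lgr5 had none, and 7 of the 10 genes matched. Capitals mark the TATA box letters TATAAA, the box called CCAAT by its letters and the GC box letters GGGCGG, on either strand, and adjoining or overlapping matches run together. The window of Serinc3 is at chr2:163645094-163645393, minus strand, and that of Pkig is at chr2:163658136-163658435, plus strand. The window of Trpv6 is at chr6:41636356-41636655, minus strand, and that of Kel is at chr6:41704276-41704575, minus strand. The window of Mettl23 is at chr11:116843265-116843564, plus strand, and that of Srsf2 is at chr11:116853045-116853344, minus strand.
Serinc3: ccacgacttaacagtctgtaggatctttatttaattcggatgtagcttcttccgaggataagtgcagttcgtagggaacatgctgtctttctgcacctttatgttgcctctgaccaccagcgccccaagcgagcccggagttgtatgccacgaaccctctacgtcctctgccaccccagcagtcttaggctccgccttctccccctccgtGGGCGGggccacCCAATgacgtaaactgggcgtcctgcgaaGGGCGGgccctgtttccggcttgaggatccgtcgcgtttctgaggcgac
Pkig: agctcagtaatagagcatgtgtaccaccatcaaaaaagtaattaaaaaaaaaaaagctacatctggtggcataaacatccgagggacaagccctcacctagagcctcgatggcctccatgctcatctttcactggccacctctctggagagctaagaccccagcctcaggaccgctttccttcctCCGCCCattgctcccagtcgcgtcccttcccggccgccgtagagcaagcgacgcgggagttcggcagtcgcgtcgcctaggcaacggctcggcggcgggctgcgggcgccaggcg
Trpv6: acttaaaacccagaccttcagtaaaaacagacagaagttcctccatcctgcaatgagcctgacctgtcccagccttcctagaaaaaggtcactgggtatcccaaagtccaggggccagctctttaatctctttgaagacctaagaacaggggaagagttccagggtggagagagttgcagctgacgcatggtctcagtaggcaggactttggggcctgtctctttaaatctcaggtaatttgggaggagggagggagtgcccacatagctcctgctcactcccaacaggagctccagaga
Kel: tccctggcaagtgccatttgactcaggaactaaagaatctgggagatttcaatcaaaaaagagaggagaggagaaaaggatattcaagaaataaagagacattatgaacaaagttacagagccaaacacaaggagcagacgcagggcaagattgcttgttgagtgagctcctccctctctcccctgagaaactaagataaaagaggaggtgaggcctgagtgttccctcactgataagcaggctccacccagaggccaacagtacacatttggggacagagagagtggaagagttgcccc
Mettl23: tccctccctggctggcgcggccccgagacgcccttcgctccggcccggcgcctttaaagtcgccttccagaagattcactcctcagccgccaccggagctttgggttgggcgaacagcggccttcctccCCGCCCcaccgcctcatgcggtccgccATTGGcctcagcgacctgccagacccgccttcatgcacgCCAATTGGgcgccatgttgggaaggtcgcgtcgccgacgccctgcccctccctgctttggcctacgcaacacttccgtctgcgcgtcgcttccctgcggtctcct
Srsf2: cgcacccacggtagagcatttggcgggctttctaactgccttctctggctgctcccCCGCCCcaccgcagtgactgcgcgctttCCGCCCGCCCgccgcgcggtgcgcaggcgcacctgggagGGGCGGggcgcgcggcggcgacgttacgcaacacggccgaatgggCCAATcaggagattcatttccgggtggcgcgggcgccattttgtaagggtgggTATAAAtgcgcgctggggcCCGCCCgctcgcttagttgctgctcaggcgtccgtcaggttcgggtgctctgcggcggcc

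Serinc3 held 21 CpG dinucleotides. Pkig has 3 start windows in this annotation, and the one shown, which lies nearest to Serinc3, held 23, while the others held 35 and 5. Trpv6 and Kel held 1 each, and Mettl23 held 32 and Srsf2 39, while the median over all 32851 windows was 7. The TATA box letters were found in 13.6% of all windows, CCAAT in 37.4% and the GC box letters in 35.7%. Of the 6 windows shown, only that of Srsf2 held the TATA box letters, and the windows of Trpv6 and Kel held none of these 3 motifs. A match is a run of letters and not a measured binding site, and the absence of a match says only that the letters are not in the window. Serinc3 and Pkig run in opposite directions, away from each other, as their starts are 13.2 kb apart with Serinc3 on the minus strand at the lower position. The starts of Trpv6 and Kel, both on the minus strand, are 67.9 kb apart. The starts of Mettl23 and Srsf2 are 9.58 kb apart, on opposite strands and facing each other. The window of Mettl23 also shares 165 bases with that of Jmjd6 on the minus strand.

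All values are linear intensities after each array was scaled to the same trimmed mean, and differences are taken on log2 of the intensity plus 16, which understates the fold of faint transcripts. Means of a strain are given ± SD over its 4 arrays. Each of the 24 arrays had its highest correlation with another array of its own strain, and none stood apart by its label. There is no read depth in array data, and 4 arrays per strain set the precision. Luminal markers were present, with the summed intensity of the 6 measured (Pbsn, Msmb, Spink1, Hoxb13, Krt8 and Krt18) between 15096 and 37150 on every array. Whether they tell the ventral lobe from other lobes was not tested. Of the 4 seminal vesicle markers only 1 passed the filter, and Svs2, Svs4 and Svs6, markers of that neighbouring gland, did not. In bulk tissue fewer cells of a type and less RNA per cell cannot be told apart, which holds for every level given here. Whether the strains differ in the sequence under the probes, which could change an intensity with no change in RNA, was not tested for any gene.

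**Figure D1:**
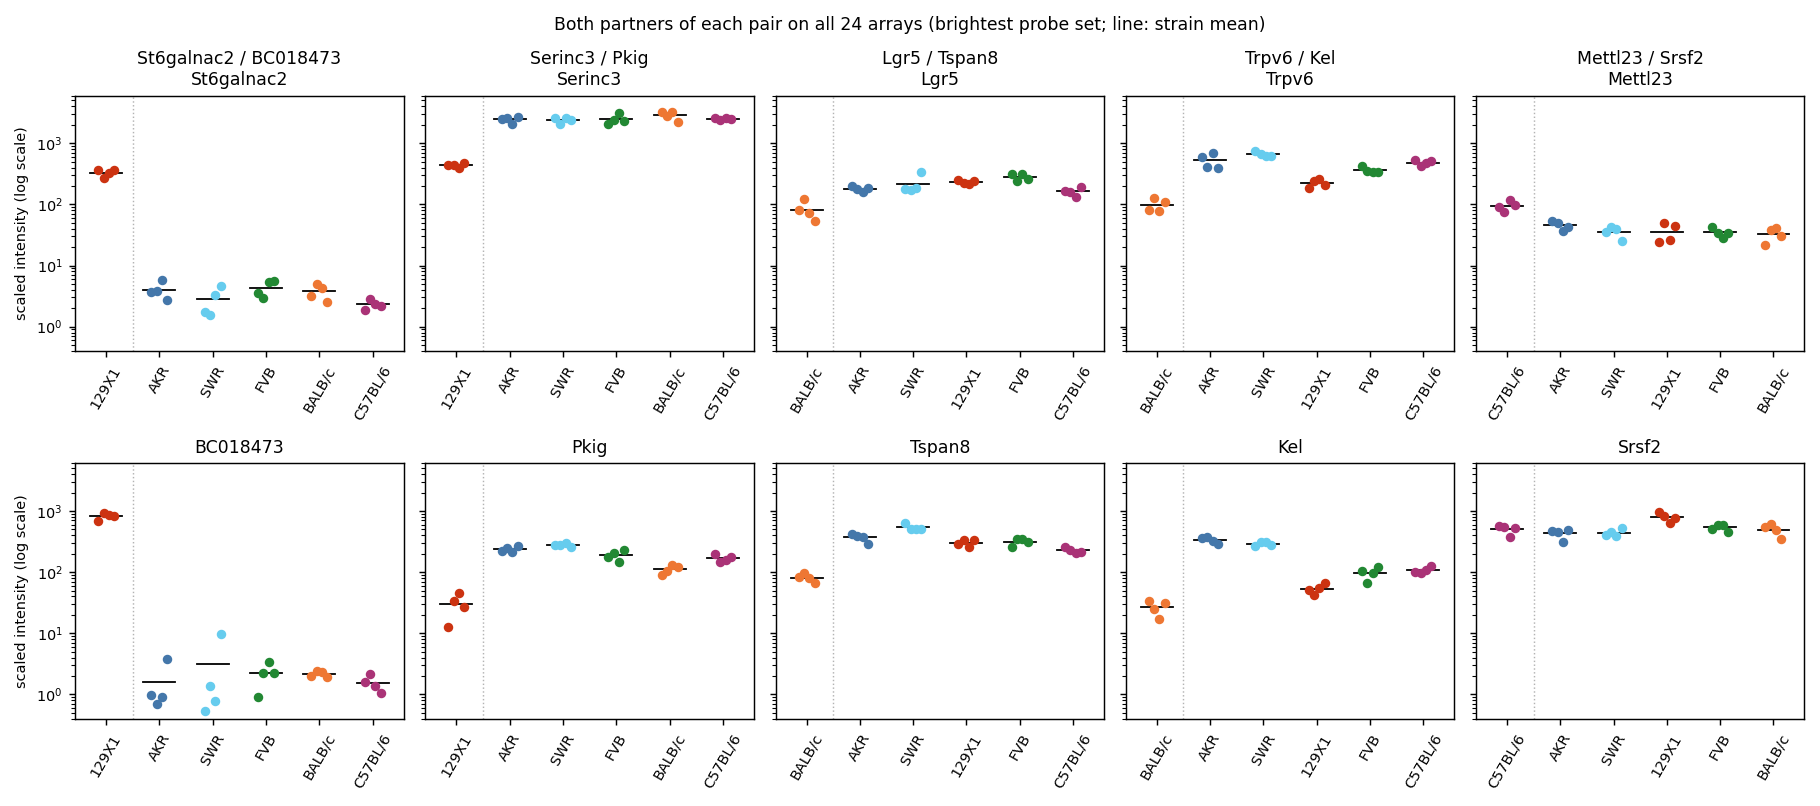
Scaled intensity (log axis) of both partners of each pair on all 24 arrays, by strain, with the strain of the pair at the left of the dotted line; points are arrays and short lines are strain means. St6galnac2 and BC018473 lie above 268 on every 129X1 array and below 10 on the others, whereas Srsf2 in C57BL/6 lies within the range of the other strains.

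St6galnac2 and BC018473 were high in 129X1 and near 0 in every other strain. At its brighter probe set (1417616_at) St6galnac2 had intensities of 361, 268, 325 and 369 on the 129X1 arrays, against a lowest value of 1.57, a median of 3.22 and a highest value of 5.77 on the other 20 arrays. BC018473 at 1427451_a_at had 687, 919.9, 847 and 821 in 129X1, against a lowest value of 0.541, a median of 1.74 and a highest value of 9.68 elsewhere. In both genes the 129X1 arrays were far above all others and the groups did not overlap. Arrays of 129X1 lay wholly above the other 20 at 0.862% of all probe sets tested, a share that is given as background only because the pair was picked on this contrast. The mean was 331 ± 45.7 in 129X1 and 3.45 in the other strains for St6galnac2, a log2 difference of 4.15 or 17.8-fold on the scale with 16 added. For BC018473 it was 819 ± 97.3 in 129X1 and 2.11 elsewhere, a log2 difference of 5.53 or 46-fold. These folds hang on the added constant, since with 64 in place of 16 the differences were 2.54 and 3.73, and with 4 they were 5.50 and 7.11. Both probe sets passed the intensity filter through the 129X1 arrays alone.

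Each of these genes has a further probe set that did not pass the filter and did not show the 129X1 level. St6galnac2 at 1417617_at had 18.4, 12.4, 3.28 and 20.4 in 129X1, against 4.72 to 31.3 elsewhere, a log2 difference of -0.14. BC018473 at 1427453_at had 16.6, 33.9, 5.77 and 8.04 in 129X1, against 1.62 to 21.9 elsewhere, a log2 difference of 0.49. The 129X1 arrays overlapped the other strains at both, so the shared pattern of this pair rests on 1 probe set per gene. On the arrays of the 5 strains other than 129X1 both genes exceeded the intensity level of the filter on 0 of 20 arrays, so variation among those strains could not be tested for this pair.

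Genes around St6galnac2 and BC018473 also differed in 129X1, in both directions. Of the 20 nearest measured genes outside the 5 pairs, 10 on each side, 6 passed the limma contrast of 129X1 against the mean of the other strains, or 30%, where 11.6% of all probe sets did. Of these 4 were higher, against 6.36% of all probe sets, and 2 were lower, against 5.27%. The largest difference was at Septin9, which encodes a cytoskeletal GTPase and had an intensity of 67.7 ± 10.9 in 129X1, against a mean of 15.5 in the other strains (a log2 difference of 1.42 ± 0.13 (SE), 2.68-fold, adjusted p = 2.8e-08). That mean of the other strains lay below the intensity level of the filter, which was 29.8 to 36.7 depending on the array. The place of Septin9 among the tested genes thus leans on the 129X1 arrays, and its call is included in the 6. Cygb, which encodes cytoglobin and is the nearest measured gene on the St6galnac2 side, had 149 ± 42 in 129X1, against a mean of 77.7 in the other strains (a log2 difference of 0.81 ± 0.14 (SE), 1.76-fold, adjusted p = 0.00032).

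Jmjd6, an oxygenase gene of the Jumonji family and the nearest measured gene on the BC018473 side, was higher as well. It had 202 ± 22 in 129X1, against a mean of 126 in the other strains (a log2 difference of 0.64 ± 0.12 (SE), 1.56-fold, adjusted p = 0.00083), but its second probe set did not pass (adjusted p = 0.47). Mfsd11, a transporter gene of the major facilitator family that lies beyond Mettl23 and Srsf2, was lower and had 9.93 ± 3.25 in 129X1, against a mean of 33.4 in the other strains (a log2 difference of -0.90 ± 0.18 (SE), 1.87-fold, adjusted p = 0.0013). Mettl23 and Srsf2, which lie between Jmjd6 and Mfsd11 and are not counted among the flanking genes, had log2 differences of -0.27 and 0.70 in 129X1, given with no test. The median difference of the 20 flanking genes was 0.02 on the log2 scale, beside 0.01 over all probe sets tested. Neighbouring genes are not independent of each other, and the share of 30% was not tested against that of all probe sets. The same 129X1 arrays gave the highest mean of Srsf2 among the strains, as described with its pair.

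Among the other genes of sialylation, those that changed in 129X1 were lower. Of 17 genes on the list 11 passed the filter, and 3 were lower and 0 higher in 129X1, where 5.27% of all probe sets were lower and 6.36% higher. Before adjustment 7 had a p under 0.05. St6galnac4, a sialyltransferase gene of the same family, had a mean of 19.5 ± 8.96 in 129X1, against 79.1 in the other strains, 2.22-fold, adjusted p = 7.5e-07. That 129X1 mean lay below the intensity level of the filter. The other probe set of St6galnac4 passed limma's contrast with a smaller log2 difference (-0.38, adjusted p = 0.018). St3gal3, whose enzyme adds sialic acid to galactose, had 34.4 ± 8.38 in 129X1, against 74 in the other strains, 1.72-fold, adjusted p = 0.012. Cmas, whose enzyme activates sialic acid, had 717 ± 8.44 in 129X1, against 916 in the other strains, 1.25-fold, adjusted p = 0.014. The median difference of the list was -0.32 on the log2 scale, beside 0.01 over all probe sets tested, and its summed intensity was 1364 to 1507 in 129X1, against 1554 to 2293 on the other 20 arrays. Cmas, the brightest gene of the list, carries much of this sum, with its means of 717 and 916. Without 129X1 replicate 4 the list gave 1 call. St6galnac1, which lies next to BC018473 on chromosome 11, did not pass the filter.

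Serinc3 and Pkig were low in 129X1. Serinc3 at its brightest probe set (1455550_x_at) had 443, 444, 400.0 and 469 in 129X1, against a lowest value of 2053, a median of 2524 and a highest value of 3268 on the other 20 arrays. Pkig at 1423945_a_at had 12.5, 34.1, 45.6 and 26.4 in 129X1, against a lowest value of 90.4, a median of 202 and a highest value of 295 elsewhere. All 4 arrays of 129X1 were below the other 20 for both genes, which 0.786% of all probe sets tested showed. Serinc3 averaged 439 ± 28.6 in 129X1 and 2539 in the other strains, a log2 difference of -2.48, or 5.57-fold lower. Pkig averaged 29.7 ± 13.9 in 129X1 and 197 elsewhere, a log2 difference of -2.21, or 4.64-fold lower.

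The low level in 129X1 was present at each of the 7 probe sets of Serinc3 and Pkig, to different extents. Serinc3 at 1417815_a_at had 495, 460.4, 399 and 464 in 129X1, against 1489 to 2693 elsewhere, and its log2 difference was -2.06. At 1417816_s_at it had 34.4, 31.8, 45.9 and 13.9 in 129X1, against 137 to 254, with a difference of -2.13. At 1456080_a_at it had 414, 270.1, 269 and 498 in 129X1, against 759 to 1677, with a difference of -1.71. None of these overlapped the other strains. The fifth, 1448847_at, was faint, with 11.5, 5.54, 10.6 and 8.73 in 129X1 and 8.72 to 47.4 elsewhere, and it did overlap. The second probe set of Pkig (1434820_s_at) had 27.9, 40.2, 23.2 and 27.3 in 129X1, against 29.5 to 221 elsewhere, a log2 difference of -1.29. There the 129X1 arrays overlapped with those of BALB/c, which had 54.2, 29.5, 50.1 and 52.5. In the naming of these arrays a probe set ending in _s_at can match several transcripts, one ending in _x_at may cross-hybridise, and one ending in _a_at matches alternative transcripts of 1 gene.

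**Figure D2:**
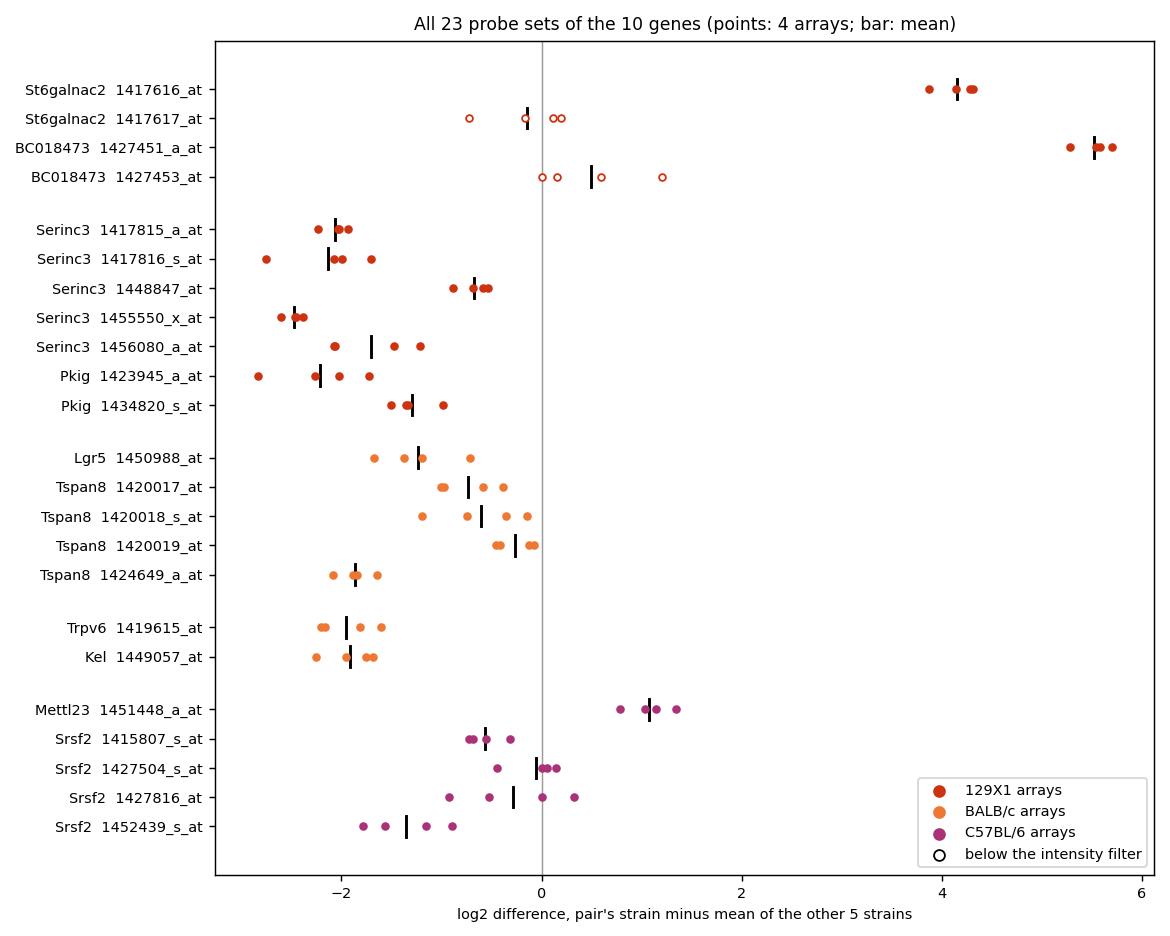
Log2 difference between the strain of the pair and the mean of the other 5 strains for all 23 probe sets; points are the 4 arrays of that strain, bars are their means, and open points are the 2 probe sets below the intensity filter. Of the 4 Srsf2 probe sets, the means run from -1.35 to -0.06, while Mettl23 lies at 1.07.

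Variation among the 5 strains other than 129X1 was tested with limma's moderated F test, which called 32.2% of all probe sets. The strain of the pair does not enter this contrast, but the levels of all strains were known when the pairs were picked. Pkig passed it at both probe sets, while Serinc3 passed it at 2 of 5 and not at the brightest, and the difference between the partners was not tested. At its brightest probe set Serinc3 had adjusted p = 0.45 in the F test of limma and means within 1.19-fold. Its less bright probe sets 1417815_a_at and 1456080_a_at passed that test, with adjusted p = 0.048 and 0.0032, while 1417816_s_at and 1448847_at did not. Pkig varied 2.31-fold among these strains (F test adjusted p = 0.00011). Its mean was 112 ± 17.5 in BALB/c, 169 ± 22.3 in C57BL/6, 190.0 ± 35 in FVB, 237 ± 21.8 in AKR and 277 ± 14.3 in SWR. In this order only C57BL/6 and BALB/c differed as neighbours (1.45-fold, adjusted p = 0.038, in a comparison that called 14.6% of all probe sets). The second probe set of Pkig also varied, 3.02-fold, with adjusted p = 5.9e-06, and BALB/c was again the lowest of the 5. Serinc3 was highest in BALB/c at its brightest probe set, with 2886 ± 498, although no neighbours in its order differed.

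Around Serinc3 and Pkig, 0 of the 20 flanking genes passed limma's contrast of 129X1, where 11.6% of all probe sets did, and 3 had a p under 0.05 before adjustment. No other tool was run on them. Hnf4a, which encodes a nuclear receptor of liver and gut, is the nearest measured gene on the Serinc3 side and had 50.9 ± 9.45 in 129X1, against a mean of 57.2 in the other strains (log2 difference -0.12, adjusted p = 0.57). Ada, which encodes adenosine deaminase, is the nearest on the Pkig side and had 24.5 ± 6.14 in 129X1, against a mean of 35.3 in the other strains (log2 difference -0.32, adjusted p = 0.14). The differences of the 20 genes ran from -0.37 to 0.31 on the log2 scale. With 20 genes on each side in place of 10, 5 of the 40 passed, or 12.5%, and after quantile normalization 1 of the 20 did.

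Relatives of these 2 genes were followed in 129X1. Of the 4 other serine incorporator genes 2 were measured, and 0 passed in limma (0 had a p under 0.05 before adjustment). Of 15 genes of the protein kinase A pathway 11 were tested, with 1 higher and 1 lower, where 6.36% of all probe sets were higher and 5.27% lower. Prkar1a, a regulatory subunit, had a mean of 326 ± 27.7 in 129X1, against 252 in the other strains, 1.3-fold, adjusted p = 0.006. Pde4b, a phosphodiesterase that degrades cyclic AMP, had 32.9 ± 12.8 in 129X1, against 57.1 in the other strains, 1.5-fold, adjusted p = 0.0075, and its other probe set did not pass. The median difference of the pathway was -0.02 on the log2 scale, beside 0.01 over all probe sets tested. Without 129X1 replicate 2 this list gave 1 call. Pkia and Pkib, the other inhibitors of the kinase, were not measured above the filter.

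Lgr5 and Tspan8 were low in BALB/c. Lgr5, with a single probe set (1450988_at), had 82, 121, 71 and 54.4 in BALB/c, against a lowest value of 131, a median of 194 and a highest value of 332 on the other 20 arrays. Tspan8 at 1424649_a_at had 82, 96.2, 78.8 and 66.8 in BALB/c, against a lowest value of 206, a median of 330.3 and a highest value of 641 elsewhere. The BALB/c arrays lay below all others for both genes, although the highest BALB/c array of Lgr5 came close to the lowest of C57BL/6. In this direction 0.856% of all probe sets showed no overlap. Lgr5 averaged 82.1 ± 28.4 in BALB/c and 215 elsewhere, a log2 difference of -1.24, or 2.36-fold lower. Tspan8 averaged 81 ± 12.1 in BALB/c and 351 elsewhere, a log2 difference of -1.86, or 3.64-fold lower.

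The other 3 probe sets of Tspan8 showed smaller differences of the same sign. At 1420017_at the BALB/c arrays had 125, 91.7, 89.9 and 146, against 151 to 277 elsewhere, a log2 difference of -0.74 without overlap. At 1420018_s_at they had 2.68 to 22.6, against 15 to 41.4, a difference of -0.61. At 1420019_at they had 35.3 to 50.4, against 29.7 to 84.2, a difference of -0.27. The groups overlapped at the last 2, which are the faintest of the 4.

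Both genes also varied among the other 5 strains, with C57BL/6 lowest in both and the order of the means otherwise different. For Tspan8 the F test of limma gave adjusted p = 6.4e-06 and the means spanned 2.31-fold, in a comparison that called 27.4% of all probe sets. The mean of Tspan8 was 226 ± 21.3 in C57BL/6, 302 ± 35 in 129X1, 315 ± 45.3 in FVB, 369 ± 58.9 in AKR and 544 ± 64.4 in SWR. SWR was above AKR (1.46-fold, adjusted p = 0.0099, with 10% of all probe sets called between these strains), and the other neighbours in this order did not pass. For Lgr5 the F test gave adjusted p = 0.022 over a range of 1.68-fold, and no neighbours in the order differed. Its mean was 162 ± 24.3 in C57BL/6, 179.9 ± 16.2 in AKR, 217 ± 77.4 in SWR, 233 ± 14.6 in 129X1 and 284 ± 38.8 in FVB. This call for Lgr5 was lost without FVB replicate 1 (adjusted p = 0.0571), without FVB replicate 3 (0.0581) and without C57BL/6 replicate 3 (0.0518). FVB thus had the highest mean of Lgr5, and SWR that of Tspan8 at its brightest probe set, a difference in order that was not tested. For Lgr5 FVB and SWR did not differ in limma's comparison of the 2 strains (1.33-fold, adjusted p = 0.19). At 1420019_at Tspan8 had nearly equal means in these strains, 66.1 in FVB and 65.9 in SWR.

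Of the 20 genes around Lgr5 and Tspan8, 3 passed the limma contrast of BALB/c, or 15%, where 18.9% of all probe sets did. The largest was Tbc1d15, which encodes a GTPase-activating protein for Rab GTPases, with 87.1 ± 51.9 in BALB/c, against a mean of 184 in the other strains (a log2 difference of -1.03 ± 0.20 (SE), 2.05-fold, adjusted p = 0.00076). Of its 3 probe sets 2 passed. Lyz1, which encodes a lysozyme of epithelia, was higher and had 269.5 ± 48.2 in BALB/c, against a mean of 159.8 in the other strains (a log2 difference of 0.74 ± 0.18 (SE), 1.67-fold, adjusted p = 0.0056). Another of its 3 probe sets passed too (log2 difference 0.65, adjusted p = 0.044) and the third did not. The probe sets that passed may cross-hybridise, and Lyz1 has a near-identical copy in Lyz2, so its level is uncertain. Nap1l1, a histone chaperone gene, was lower at its brightest probe set (log2 difference -0.24, adjusted p = 0.039). At its other probe sets the log2 difference in limma ran from -0.49 (adjusted p = 0.0025) to -0.04 (adjusted p = 0.86), and only some of them passed. The nearest measured genes did not pass, neither Tmem19 on the Lgr5 side (log2 difference -0.25, adjusted p = 0.064) nor Ptprb, a receptor phosphatase gene of endothelium, on the Tspan8 side (log2 difference -0.10, adjusted p = 0.66). The count of 3 became 9 on the values as deposited, with no further scaling, 5 with 64 added and 6 when BALB/c replicate 2 was left out, so it depends on these choices. On the scaled values 9 of the 20 had a p under 0.05 before adjustment.

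Of 20 other genes of Lgr5 and Wnt signalling 11 were tested, with 1 higher and 1 lower in BALB/c, where 8.3% of all probe sets were higher and 10.6% lower. On the values as deposited the list gave 5 calls. Smoc2, a matricellular protein gene known as an intestinal stem cell marker, had a mean of 119 ± 9.64 in BALB/c, against 218 in the other strains, 1.63-fold, adjusted p = 3.9e-05. Its other probe set passed limma's contrast too (log2 difference -0.76, adjusted p = 0.0089). Tnfrsf19, a receptor gene of the tumour necrosis factor family, had 78.7 ± 16.6 in BALB/c, against 52.3 in the other strains, 1.44-fold, adjusted p = 0.0072, but 2 further probe sets did not pass. Without BALB/c replicate 4 this list gave 1 call. Lgr4, Rspo1, Rspo2, Rspo3 and Rspo4, which encode a related receptor and the ligands, were not measured above the filter. Of the 18 tetraspanin and partner genes tested, 2 were higher and 3 lower in BALB/c, beside the same shares of all probe sets, with a median difference of 0.05 on the log2 scale, beside -0.01 over all probe sets tested. Epcam, an adhesion protein gene of epithelia, had 2208 ± 58.9 in BALB/c, against 1547 in the other strains, 1.44-fold, adjusted p = 6.7e-05. Tspan17 had 15.3 ± 10.3 in BALB/c, against 40.5 in the other strains, 1.85-fold, adjusted p = 0.00061, and its other probe set did not pass. Cd81, a tetraspanin of many cell types, had 421 ± 66 in BALB/c, against 571 in the other strains, 1.34-fold, adjusted p = 0.0079.

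Markers of several cell types moved with BALB/c. Of 6 luminal markers 5 were higher and 1 lower, and their summed intensity was 33367 to 37150.0 in BALB/c, against 15096 to 28151 on the other 20 arrays. Of 5 smooth muscle markers 4 were lower, and their sum was 3889 to 4029 in BALB/c, against 4374 to 10424 on the other 20 arrays, without overlap. All 4 basal markers were lower, with a sum of 237 to 291 in BALB/c, against 258 to 892 on the other 20 arrays. All 3 measured adipocyte markers were higher, with a sum of 358 to 3388 in BALB/c, against 72.8 to 3617 on the other 20 arrays, and of 3 skeletal muscle markers only Acta1 was lower. In limma's contrast 8.3% of all probe sets were higher and 10.6% lower in BALB/c. The part of these markers in the low levels of Lgr5, Tspan8, Trpv6 and Kel was not tested.

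Trpv6 and Kel were also low in BALB/c. Trpv6 (1419615_at) had 80.6, 127, 78 and 107 in BALB/c, against a lowest value of 185, a median of 429 and a highest value of 748 on the other 20 arrays. Kel (1449057_at) had 33.4, 24.9, 17.2 and 31.1 in BALB/c, against a lowest value of 41.9, a median of 116 and a highest value of 379 elsewhere. The BALB/c arrays were the lowest for both genes and did not overlap with any other strain, with 129X1 nearest to them in each. Trpv6 averaged 98.2 ± 23.2 in BALB/c and 449 elsewhere, a log2 difference of -1.95, or 3.86-fold lower. Kel averaged 26.6 ± 7.26 in BALB/c and 177 elsewhere, a log2 difference of -1.91, or 3.77-fold lower. Each gene has 1 probe set, so no second measurement was at hand.

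In the other 5 strains this pair varied the most of the 5 pairs by the smaller of the partners' ranges. Trpv6 spanned 2.86-fold (F test of limma, adjusted p = 2.9e-06) and Kel spanned 5.08-fold (adjusted p = 2.6e-11). Trpv6 averaged 222 ± 33.3 in 129X1, 361 ± 46.4 in FVB, 482 ± 42.9 in C57BL/6, 523 ± 148 in AKR and 660.2 ± 60.6 in SWR. Kel averaged 53.4 ± 9.9 in 129X1, 97.4 ± 22.7 in FVB, 107 ± 12.4 in C57BL/6, 292 ± 20.6 in SWR and 335 ± 40.8 in AKR. From low to high the strains thus came in the same order for both genes, except that AKR and SWR changed places at the top.

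Only some steps in these orders passed limma's comparison of the 2 strains. FVB was above 129X1 for Trpv6 (1.59-fold, adjusted p = 0.011) and for Kel (1.62-fold, adjusted p = 0.0034), where 8.49% of all probe sets differed between these strains. SWR was above C57BL/6 for Kel (2.51-fold, adjusted p = 1.4e-06, with 7.97% of all probe sets called), whereas no such step passed for Trpv6, in which AKR stood next to C57BL/6 (1.06-fold, adjusted p = 0.81). The reversed places of AKR and SWR did not pass for either gene (1.29-fold, adjusted p = 0.17 for Trpv6 and 1.14-fold, adjusted p = 0.46 for Kel).

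Around Trpv6 and Kel, 6 of 20 flanking genes passed the contrast of BALB/c, or 30%, where 18.9% of all probe sets did, and 5 of the 6 were lower, as were 10.6% of all probe sets. Ephb6, the gene of a kinase-dead Eph receptor and the nearest measured gene on the Trpv6 side, had 100.1 ± 24.7 in BALB/c, against a mean of 224 in the other strains (a log2 difference of -1.01 ± 0.12 (SE), 2.01-fold, adjusted p = 2e-06). Gstk1, a glutathione transferase gene and the second measured gene on the Kel side, had 307 ± 27 in BALB/c, against a mean of 573 in the other strains (a log2 difference of -0.83 ± 0.08 (SE), 1.77-fold, adjusted p = 1.1e-07). Sval1, which encodes a protein like a seminal vesicle antigen, stands between Kel and Gstk1 among the measured genes and was faint, with 23.2 ± 6.82 in BALB/c, against a mean of 24.9 in the other strains (log2 difference -0.04, adjusted p = 0.85). Zyx, which encodes the focal adhesion protein zyxin, was lower (log2 difference -0.54, adjusted p = 0.004), and Mrps33, a mitochondrial ribosomal protein gene, was higher (log2 difference 0.35, adjusted p = 0.003). The median difference of the 20 genes was -0.10 on the log2 scale, beside -0.01 over all probe sets tested. With 20 genes on each side, 13 of 40 passed.

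**Figure D3:**
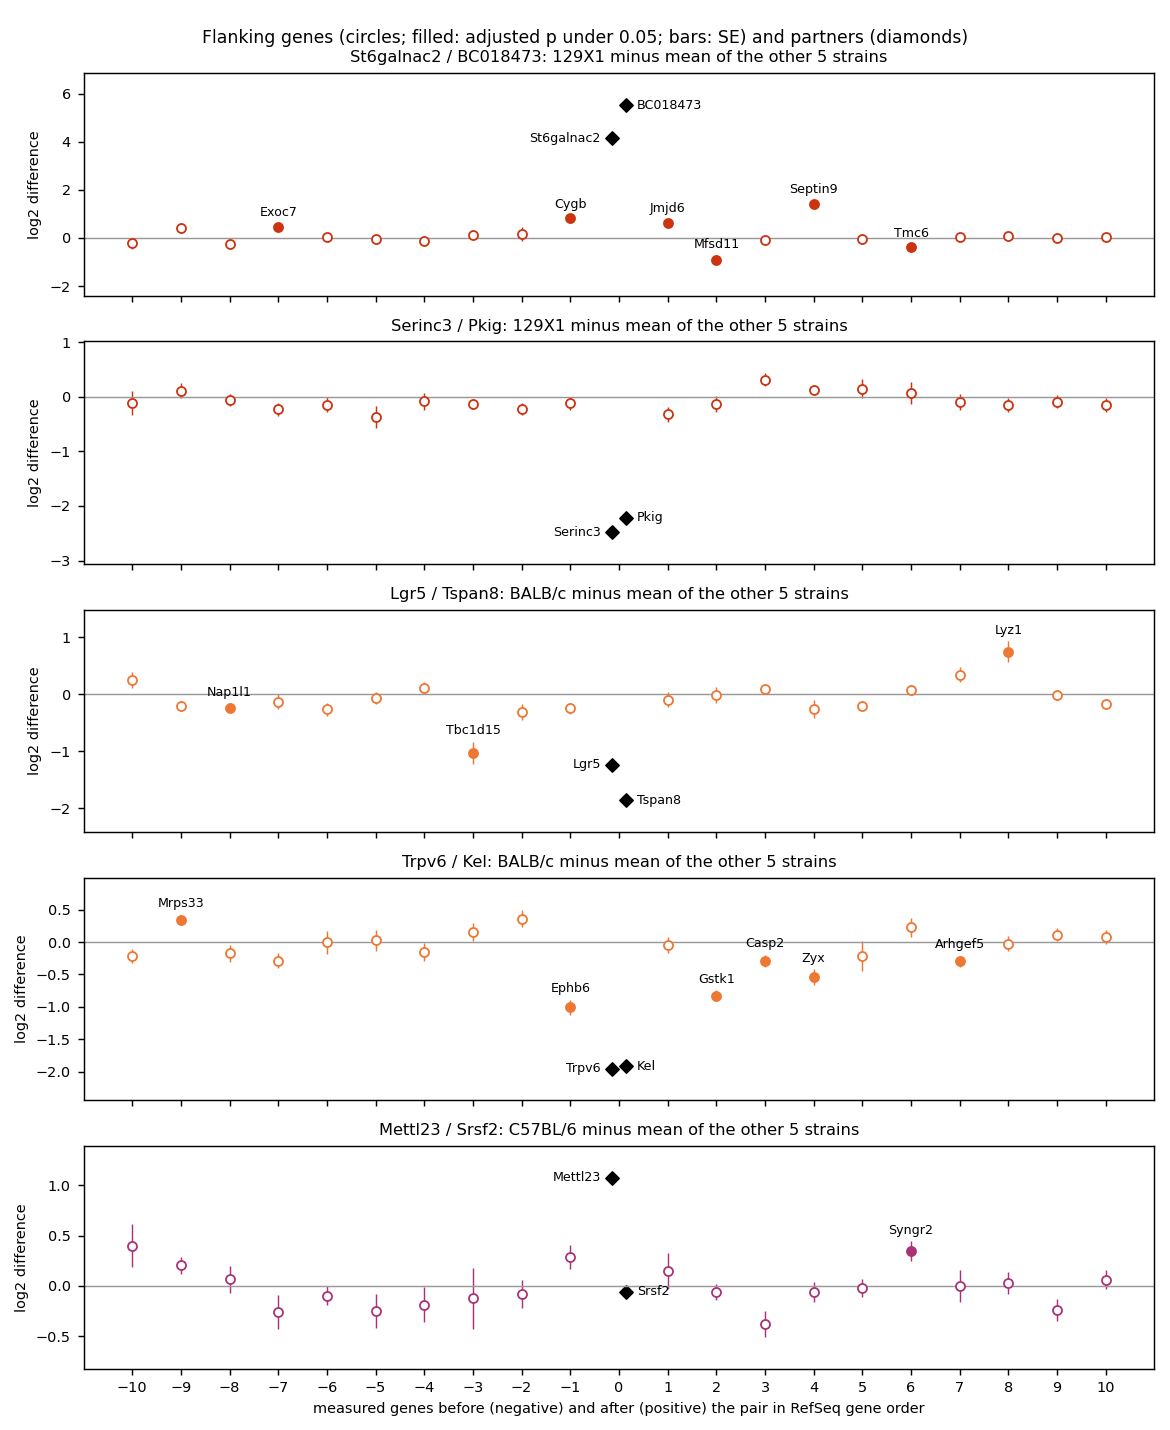
Log2 difference between the strain of the pair and the mean of the other 5 strains for the 10 nearest measured genes outside the 5 pairs, before and after each pair in gene order (circles, bars are SE, filled where limma's adjusted p is under 0.05) and for the partners themselves (diamonds). Called genes number 6 of 20 around St6galnac2/BC018473 and Trpv6/Kel, 3 around Lgr5/Tspan8, 1 around Mettl23/Srsf2 and 0 around Serinc3/Pkig.

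Among the genes that act with Trpv6 in epithelial calcium transport, 5 of 12 were tested, with 1 lower and 0 higher in BALB/c, where 10.6% of all probe sets were lower and 8.3% higher. This was S100a10, which encodes an annexin partner known to bring the channel to the membrane, with a mean of 286 ± 100.2 in BALB/c, against 444 in the other strains, 1.54-fold, adjusted p = 0.003. Trpv5, the sister channel that lies between Trpv6 and Kel, was not measured above the filter, nor were S100g and Calb1, which encode calcium-binding proteins of the cytosol. Of the relatives of Kel, 5 of 7 were tested, with 1 higher and 0 lower, beside the same shares of all probe sets. The higher one was Mme, which encodes neprilysin, with 1887 ± 199.8 in BALB/c, against 1075 in the other strains, 2.28-fold, adjusted p = 1.9e-08. Its other probe set passed limma's contrast too (log2 difference 1.21, adjusted p = 7.7e-09). The calcium transport list gave 2 calls without BALB/c replicate 1, 2 or 4, and the relatives of Kel gave 2 without AKR replicate 4, FVB replicate 3 or BALB/c replicate 1. Of the erythroid markers 0 of 2 measured (Hba-a1 and Alas2) passed limma's contrast in BALB/c (0 had a p under 0.05 before adjustment), and their sum was 76.6 to 98.8 in BALB/c, against 19.8 to 114 on the other 20 arrays. Slc4a1 and Epb42, which encode red cell membrane proteins, were not measured above the filter.

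Mettl23 and Srsf2 formed the weakest pair and did not share a direction in C57BL/6. Mettl23 (1451448_a_at) had 90.4, 73.7, 117 and 98.9 in C57BL/6, against a lowest value of 22, a median of 37.6 and a highest value of 52.9 on the other 20 arrays, and the groups did not overlap. In this direction 0.919% of all probe sets showed no overlap. Mettl23 averaged 94.9 ± 17.8 in C57BL/6 and 36.9 elsewhere, a log2 difference of 1.07, or 2.11-fold higher. Srsf2 at its brightest probe set (1427504_s_at) had 578, 541, 377 and 523 in C57BL/6, against a lowest value of 315, a median of 496 and a highest value of 953 elsewhere, a log2 difference of -0.06. Here C57BL/6 lay in the middle of the other strains, so on this probe set the label of a shared strain did not hold for Srsf2.

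A less bright probe set of Srsf2 did set C57BL/6 apart, in the direction opposite to Mettl23. At 1452439_s_at the C57BL/6 arrays had 54.6, 68.6, 29.6 and 36.9, against 91.4 to 215 elsewhere, a log2 difference of -1.35, or 2.55-fold lower, without overlap (0.628% of all probe sets in this direction). At 1415807_s_at they had 146, 166, 199 and 151, against 181 to 350.1, a difference of -0.57 with overlap. At 1427816_at they had 33.9, 79.2, 103 and 49.8, against 27.8 to 165, a difference of -0.28 with overlap. Of the 4 probe sets 3 carry the ending of those that can match several transcripts, and which transcripts each one matches was not tested.

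Over the other 5 strains Mettl23 did not pass (F test of limma, adjusted p = 0.44, in a comparison that called 32.7% of all probe sets). It was faint there and exceeded the intensity level of the filter on only 13 of the 20 arrays. Srsf2 at its brightest probe set passed the same F test (1.81-fold, adjusted p = 0.0032), with the highest mean in 129X1. For Srsf2 the strain farthest from the mean of the other 5 was 129X1 (log2 difference 0.70) and not C57BL/6 (-0.06). The F test of Srsf2 thus includes the strain in which it stood apart most. The 129X1 arrays had 953, 813, 639 and 757, against 501, 595, 589 and 461 in FVB, the next strain in order. These did not overlap, but the step between the 2 strains did not pass (1.45-fold, adjusted p = 0.058). The F test gave adjusted p = 0.026 at 1415807_s_at, 0.15 at 1452439_s_at and 0.85 at 1427816_at.

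Around Mettl23 and Srsf2 1 of the 20 flanking genes passed the contrast of C57BL/6, or 5%, where 11.1% of all probe sets did. This was Syngr2, which encodes a vesicle membrane protein, with 714 ± 65.2 in C57BL/6, against a mean of 564 in the other strains (a log2 difference of 0.34 ± 0.10 (SE), 1.27-fold, adjusted p = 0.023), and its other probe set did not pass. With the probe sets of a gene averaged, 3 flanking genes passed. Syngr2 lost its call without C57BL/6 replicate 1, 3 or 4, each of which left 0 genes called, while leaving out AKR replicate 2 or 4, 129X1 replicate 2 or BALB/c replicate 4 gave 2. Jmjd6, which overlaps Mettl23, had 162 ± 27.6 in C57BL/6, against a mean of 134 in the other strains (log2 difference 0.29, adjusted p = 0.14). Mfsd11, which overlaps Srsf2, had 31.8 ± 8.49 in C57BL/6, against a mean of 29 in the other strains (log2 difference 0.15, adjusted p = 0.68).

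Splicing factors were followed in C57BL/6. Of the 20 SR proteins, their kinases and cofactors tested, 1 was lower and 0 higher, where 5.45% of all probe sets were lower and 5.65% higher. The lower one was Srrm2, a scaffold of nuclear speckles, with 155 ± 31.1 in C57BL/6, against 254 in the other strains, 1.55-fold, adjusted p = 0.028, and without any single C57BL/6 array it was no longer called. The median difference of the list was -0.0015 on the log2 scale, beside -0.01 over all probe sets tested. Of 7 methyltransferase-like genes tested 1 was higher, beside the same shares of all probe sets. This was Mettl9, which encodes a histidine methyltransferase, with 479 ± 25.8 in C57BL/6, against 368 in the other strains, 1.3-fold, adjusted p = 0.0078, while its other probe set did not pass. Basal and adipocyte markers were lower in C57BL/6, 3 of 4 and 3 of 3, where 5.45% of all probe sets were lower. The summed intensity of the basal markers was 258 to 296 in C57BL/6, against 237 to 892 on the other 20 arrays. That of the adipocyte markers was 72.8 to 136 in C57BL/6, against 115 to 3617 on the other 20 arrays. Their part in the level of Mettl23 was not tested.

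In 129X1 the markers of basal and smooth muscle cells were higher, 3 of 4 and 3 of 5, where 6.36% of all probe sets were higher and 5.27% lower. The summed intensity of basal markers was 755 to 892 in 129X1, against 237 to 759 on the other 20 arrays, and that of smooth muscle markers was 6311 to 8884 in 129X1, against 3889 to 10424 on the other 20 arrays. Of the luminal markers 1 of 6 was lower. These markers moved with the high level of St6galnac2 and BC018473 and with the low level of Serinc3 and Pkig, and their part in either was not tested.

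Whether the partners also move together from array to array within a strain is a question that the choice of the pairs did not use. The deviation of each array from the mean of its strain was correlated between partners over all 24 arrays, and the p came from 100000 permutations of the arrays within strains. St6galnac2/BC018473 could not be tested in this way, since both partners lay below the filter outside 129X1. Pearson's r was -0.23 for Serinc3/Pkig (two-sided permutation p = 0.29) and 0.18 for Lgr5/Tspan8 (permutation p = 0.45). It was 0.048 for Trpv6/Kel (permutation p = 0.85) and -0.13 for Mettl23/Srsf2 (permutation p = 0.61). After adjustment over these 4 pairs the permutation p lay between 0.817 and 0.846.

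Spearman's rho lay between -0.27 and 0.16 in the same 4 pairs, with an adjusted permutation p of 0.946 for each. Without the 2 arrays farthest from the median of the first partner, r was -0.036 for Serinc3/Pkig, 0.14 for Lgr5/Tspan8, 0.12 for Trpv6/Kel and -0.11 for Mettl23/Srsf2. No covariation within strains was detectable in these 4 pairs with 24 arrays.

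**Figure D4:**
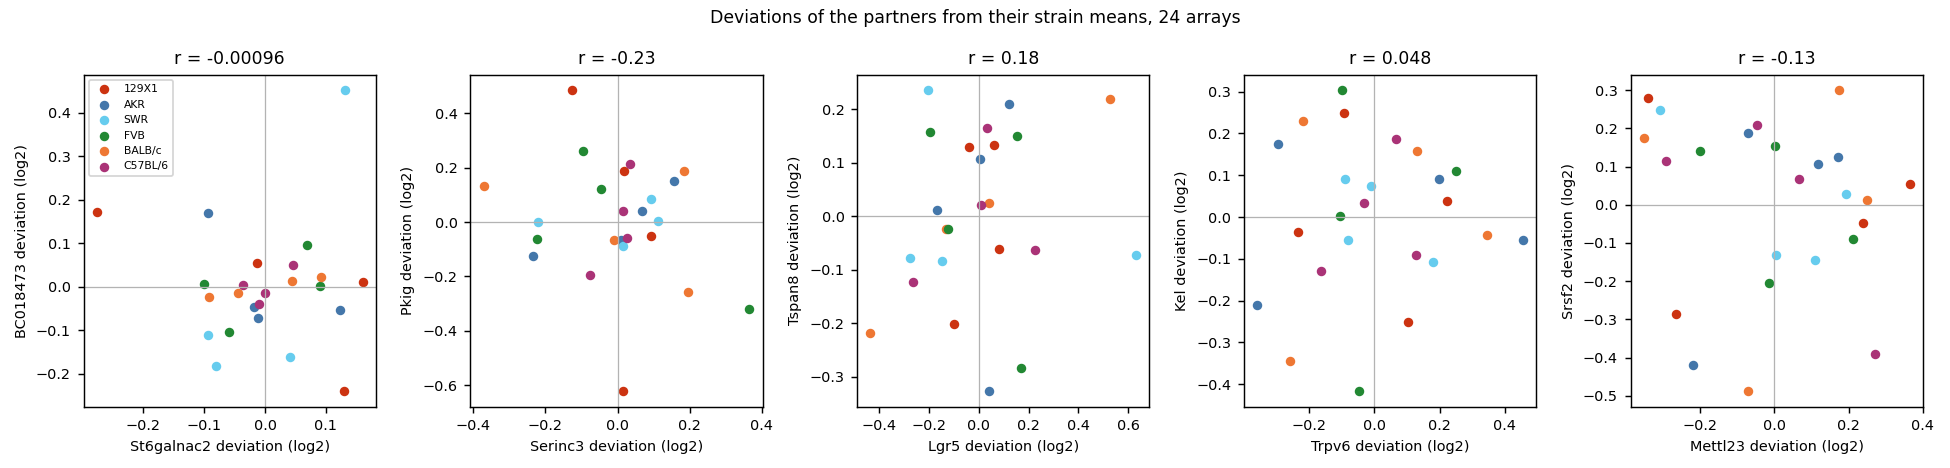
Deviation of each array from the mean of its strain (log2) for the first partner (horizontal axis) and the second (vertical axis) of each pair; points are the 24 arrays, coloured by strain. In the 4 pairs measured above the filter on at least 4 arrays outside their strain no slope passes the permutation test, with r from -0.23 to 0.18. The panel of St6galnac2/BC018473 holds mostly arrays below the filter.

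The genes most like each pair over the 24 arrays were mostly on other chromosomes. Likeness was measured as Pearson's r with the mean of the 2 partners' standardised log2 values, it uses the contrast that chose the pairs, and it is given as a description. For St6galnac2/BC018473 these were Septin9 (r = 0.92), on the same chromosome and among the flanking genes above, Pam (r = 0.89), a gene of peptide amidation, and Steap4 (r = 0.89), a metalloreductase gene. For Serinc3/Pkig they were Treh (r = 0.95), which encodes trehalase, Ghitm (r = 0.91), a gene of a mitochondrial membrane protein, and Ctsl (r = 0.89), the gene of the lysosomal protease cathepsin L. For Lgr5/Tspan8 they were Mylk (r = 0.94), a smooth muscle kinase gene, Acta1 (r = 0.92), the actin gene of skeletal muscle, and Coro2a (r = 0.92), a gene of the actin-binding coronins. For Trpv6/Kel they were Aldh7a1 (r = 0.88), an aldehyde dehydrogenase gene, Rab4a (r = 0.88), a GTPase gene of endosome recycling, and Slc25a51 (r = 0.86), a mitochondrial carrier gene. For Mettl23/Srsf2, whose partners had r = -0.16 with each other, the values were lower, with Jmjd1c (r = 0.77), Hopx (r = 0.75) and Tcim (r = 0.74).

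In all, 8 of the 10 genes were measured above the filter on at least 4 arrays of the 5 strains other than that of their pair. Of these, 6 passed the F test among those strains at their brightest probe set, namely Pkig, Lgr5, Tspan8, Trpv6, Kel and Srsf2. For Srsf2 those strains include 129X1, the strain in which this gene lay farthest from the others. The same tests called 32.2% of all probe sets without 129X1, 27.4% without BALB/c and 32.7% without C57BL/6. Mettl23 did not pass, nor did Serinc3 at its brightest probe set, although 2 of its 5 probe sets did. Both partners passed in Lgr5/Tspan8 and Trpv6/Kel.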

How the data were processed

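The ventral prostate of 6 inbred strains was measured with 4 biological replicates each. The deposited values are linear intensities, 1 for each probe set on each array. The submitters' processing notes name MAS5 with no settings, and the genome build of the probe annotation is not given in the sources used here. Every deposited column of intensity averaged 143.1, so the columns appear scaled to a common mean. Their 2% trimmed means ran from 91.3 to 105, and each array was rescaled to 98.7. After log2 of the intensity plus 16, 15775 of 22690 probe sets were kept, those above their array's 40th percentile on at least 4 arrays (64 controls left out).

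Models were fitted with limma (3.58.1, under R 4.3.3) and a mean for each strain, giving two-sided p-values adjusted by Benjamini-Hochberg over all probe sets of a comparison, and a threshold of 0.05. A gene was represented by its brightest tested probe set with a single symbol (20393 had 1 symbol, 691 several and 1606 none; 20372 matched RefSeq genes of GRCm38.p6, used for gene order only). Of the 23 member probe sets 21 passed the filter. Flanking genes are the nearest measured genes that belong to none of the 5 pairs. The members and gene lists were chosen with earlier results of these data known.

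The text names all members, the nearest measured gene on each side of a pair, up to 4 called flanking genes with the largest difference, up to 3 called genes per list, marker examples, and the 3 genes most like each pair. Arrays with the same replicate number in different strains had a mean correlation of deviations of 0.0053 over 60 pairs, so the numbers were not taken as pairing the samples. The workflow was tested on simulated data. Alternatives were the added constant, the normalization, the filter, the choice of probe set, the flank width, the replicate number and each array left out.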

Additional observations from a re-analysis of the deposited data

Results flagged for a closer look

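For each of the 10 genes and 6 strains, the highest or lowest of the 4 arrays was checked against the other 3, and 6 of 60 groups held an array whose gap to its nearest neighbour was most of the range. Chance flags about 1 in 20 groups.

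BC018473 had 3.73 in AKR replicate 4, against 0.690 to 0.963 on the other AKR arrays, and 9.68 in SWR replicate 4, against 0.541 to 1.39; both values are far below the 687 to 920 of the 129X1 arrays. Lgr5 had 332 in SWR replicate 4, against 169 to 187 on the other SWR arrays, which makes that array the highest of all 24 for this gene. Tspan8 had 641 in SWR replicate 1, against 510 to 514 on the other SWR arrays, all of which were above every AKR array. Trpv6 had 430 in FVB replicate 1, against 333 to 347. Srsf2 had 315 in AKR replicate 3, against 460 to 488. The cause of these deviations was not tested.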

How the results depend on the processing

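Pairs were chosen from 1 table of 24 arrays, so their strain levels have no independent check here, and faint values near the added constant have no reliable fold. Alternatives moved sizes more than directions. The mean absolute log2 difference of a pair's strain was 3.14 for St6galnac2/BC018473, 1.91 for Serinc3/Pkig, 1.20 for Lgr5/Tspan8 and 1.42 for Trpv6/Kel with 64 added, and 6.31 for St6galnac2/BC018473 with 4 added (4.84, 2.35, 1.55 and 1.93 with 16). With the probe sets of a gene averaged it was 1.78 for Serinc3/Pkig, 1.05 for Lgr5/Tspan8 and 0.82 for Mettl23/Srsf2 (0.57 at the brightest probe sets), and 3 genes around Mettl23/Srsf2 were called. Of the genes around Lgr5/Tspan8 5 were called with 64 added and 9 on the values as deposited, where the Lgr5 and Wnt list gave 5 calls; quantile normalization gave 1 around Serinc3/Pkig. With 5 genes on each side the calls were 1 for Lgr5/Tspan8 and 0 for Mettl23/Srsf2, and with 20 they were 5 for Serinc3/Pkig, 9 for Lgr5/Tspan8, 13 for Trpv6/Kel and 2 for Mettl23/Srsf2. The r of St6galnac2/BC018473 was 0.30 with 4 added and 0.0048 on the values as deposited, but both partners lie below the filter outside 129X1, so these values say nothing about covariation.

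With each array left out in turn, calls around Lgr5/Tspan8 ran from 2 to 6 and around Mettl23/Srsf2 from 0 to 2, and the difference of Srsf2 ran from -0.13 to 0.071, turning sign without C57BL/6 replicate 3. The r ran from -0.44 to 0.28 for St6galnac2/BC018473 and from -0.10 to 0.14 for Trpv6/Kel. List calls ran from 1 to 4 for sialylation (1 without 129X1 replicate 4), from 1 to 3 for Lgr5 and Wnt (1 without BALB/c replicate 4) and for protein kinase A (1 without 129X1 replicate 2), from 1 to 2 for calcium transport (2 without BALB/c replicate 1, 2 or 4) and for neprilysin relatives (2 without AKR replicate 4, FVB replicate 3 or BALB/c replicate 1), and from 0 to 1 for splicing factors. The causes were not tested. Under the replicate block, which the labels do not justify as pairing, 4 genes around Lgr5/Tspan8 and 3 of protein kinase A were called, Lgr5 kept its call among the remaining strains (adjusted p = 0.033), and no call of a member that could be tested in the remaining strains changed.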
